A study of Mus musculus with 7 samples.

Results

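Small nucleolar RNAs (snoRNAs) were followed in mouse splenic B cells. The members were the features of the deposited table whose symbol begins with Snora or Snord and a number and that held 10 or more reads summed over the 7 libraries. Of 121 such symbols, 70 met this rule, out of 46959 features in all. They were 48 C/D snoRNAs (symbols Snord) and 22 H/ACA snoRNAs (symbols Snora). Of the 51 symbols left out, 48 had no read in any library. The other 3 were Snora36b and Snord61 with 6 reads each and Snord67 with 4, whereas the members nearest the limit were Snord123 with 11, Snord90 with 12 and Snora5c with 14. Most of the 48 symbols without reads, such as Snord47 and Snord78 in Gas5 and Snora3 in Rpl27a, lie wholly under a same-strand exon of another gene. Of the 70 members 10 do, and Snora35, also without reads, lies under none. How reads shared between genes were counted is not known, so a lack of reads need not mean that the RNA was absent. The genes of U3 RNA carry other symbols (Rnu3) and were not taken by the rule.

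The groups were 3 wild-type (WT) cultures and 4 labelled cKO MED1, a label that holds the name of a Mediator subunit. Mediator is the complex that bridges transcription factors and RNA polymerase II. All 7 were purified splenic B cells kept for 4 days with 1 µg/mL lipopolysaccharide and 20 ng/mL interleukin 4. The sources used here do not give how Med1 was altered, in which cells, or the strain or the age of the mice. Nor do the labels tell whether each culture had its own mouse, and p-values therefore refer to the spread among these cultures. Med1 itself had 4755, 4173 and 4210.1 normalised reads in WT and 2585, 2172, 2249 and 2436 in cKO MED1, at 53.9% of the WT mean without overlap (limma log2 fold change -0.89, adjusted p = 0.000174). The series asks about immunoglobulin heavy chain genes, and the comparison of snoRNAs between the genotypes uses the same libraries for RNA that the title does not mention.

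SnoRNAs are short noncoding RNAs of the nucleolus. C/D snoRNAs guide methylation of the ribose in ribosomal RNA, and H/ACA snoRNAs guide the conversion of uridine to pseudouridine, while a few of each class help to cut the precursor of ribosomal RNA instead. In mammals most are excised from introns of other genes, trimmed at both ends and kept from decay by the proteins that bind them. In activated B cells, as in other dividing cells, ribosome synthesis is high.

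The sequences of 8 members are shown because the results turn on them: the 3 that were called lower, the most abundant of each class with its near-identical copy where there is one, and a C/D and an H/ACA snoRNA whose reads hardly varied. They come from the GENCODE M21 transcripts of GRCm38, written 5′ to 3′ in DNA letters. Capitals mark the C box (TGATGA) and the D box (CTGA) of C/D snoRNAs and the ACA box of H/ACA snoRNAs. Snora78 lies on the minus strand of chr17:24719676-24719803, Snora17 on the minus strand of chr2:26639190-26639321 and Snord19 on the minus strand of chr14:31016206-31016281. Snora73b (chr4:132352322-132352526) and Snora73a (chr4:132352775-132352979) lie next to each other on the minus strand, and Snord17 is on the minus strand of chr2:144265979-144266216. Snord104 (chr11:106500993-106501062) and Snora28 (chr12:111540941-111541067) are on the plus strand.
Snora78: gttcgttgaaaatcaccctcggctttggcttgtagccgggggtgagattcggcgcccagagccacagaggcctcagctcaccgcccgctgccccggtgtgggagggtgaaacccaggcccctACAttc
Snora17: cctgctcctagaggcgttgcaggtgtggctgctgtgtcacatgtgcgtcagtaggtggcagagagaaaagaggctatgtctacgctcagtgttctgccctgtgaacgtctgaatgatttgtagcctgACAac
Snord19: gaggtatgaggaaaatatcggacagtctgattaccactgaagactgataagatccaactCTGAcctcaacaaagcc
Snora73b: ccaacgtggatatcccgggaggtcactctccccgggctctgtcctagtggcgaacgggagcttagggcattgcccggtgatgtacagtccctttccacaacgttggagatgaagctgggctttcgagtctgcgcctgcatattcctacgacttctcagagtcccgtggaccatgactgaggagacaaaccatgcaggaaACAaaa
Snora73a: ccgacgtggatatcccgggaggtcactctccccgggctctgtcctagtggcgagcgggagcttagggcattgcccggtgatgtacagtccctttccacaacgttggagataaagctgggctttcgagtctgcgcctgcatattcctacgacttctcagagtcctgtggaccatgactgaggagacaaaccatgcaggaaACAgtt
Snord17: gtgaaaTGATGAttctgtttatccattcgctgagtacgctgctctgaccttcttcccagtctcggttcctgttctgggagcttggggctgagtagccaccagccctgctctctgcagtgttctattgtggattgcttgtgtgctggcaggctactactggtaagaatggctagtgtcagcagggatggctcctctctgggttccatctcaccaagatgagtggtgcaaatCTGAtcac
Snord104: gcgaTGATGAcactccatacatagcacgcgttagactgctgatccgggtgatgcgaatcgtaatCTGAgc
Snora28: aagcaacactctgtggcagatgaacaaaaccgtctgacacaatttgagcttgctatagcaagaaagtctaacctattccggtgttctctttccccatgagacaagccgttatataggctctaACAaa

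The boxes, searched on the transcribed strand, separate the classes as the symbols do. TGATGA within the first 30 bases was found in 31 of 48 C/D members and CTGA within the last 20 bases in 47, and 30 (62.5%) held both. Of 22 H/ACA members, 0 held the TGATGA box there and 3 held CTGA. ACA within the last 10 bases was found in all 22 H/ACA members, and 21 (95.5%) also held ANANNA in the middle one of 3 equal stretches of the RNA, the letters of the H box. Both of these were found in 1 of 48 C/D members (2.08%). On the annotated strand of RefSeq promoter windows of the members' median lengths, the C and D boxes stood together in 0.0487% of 32851 windows and the H and ACA boxes in 5.86%. Snord19 and Snord118 (U8) have no exact TGATGA in this window, and Snord53 has no CTGA near its annotated end.

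Reads over snoRNAs were few. Libraries held 31937372 to 61149274 reads, every WT library being deeper than every cKO MED1 library, and snoRNA members took 6282, 8391 and 6891 of them in WT and 3259, 5790, 3854 and 1696 in cKO MED1. Levels are given below as normalised reads, which are recovered reads scaled with TMM factors to a common library of 48080599 reads. The members' means over the 7 libraries ran from 1.67 to 1357, with a median of 25.2. Only 7 members reached a mean of 100, and 30 stood under 20. Snora73b and Snord17 together gave 45.9% of all snoRNA reads. Annotated length set the classes apart, at 64 to 238 bases (median 80.5) for C/D and 121 to 205 (median 132) for H/ACA, so levels between members are compared per 100 bases. On that scale the class medians were 26.7 normalised reads per 100 bases for C/D and 29.4 for H/ACA. Over the 70 members, Spearman's rho of length with level was 0.32 before this division and 0.03 after it. Only 4 of the 70 were 150 bases or longer, the length of a read, so division by length may not make levels comparable. How well the shorter RNAs were recovered was not tested.

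**Figure D1:**
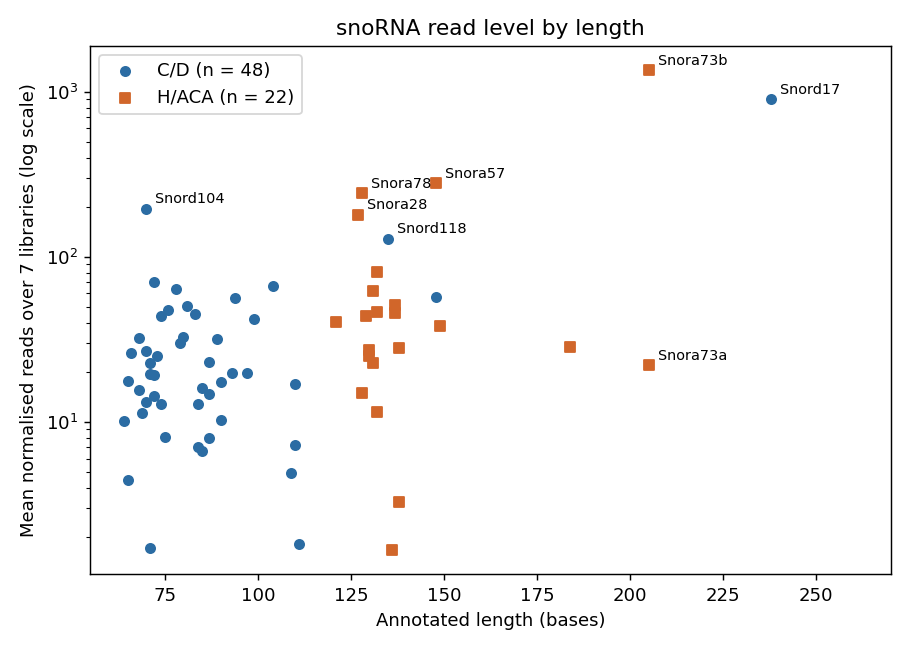
Mean normalised reads over the 7 libraries (log axis) against annotated length in bases for the 48 C/D (circles) and 22 H/ACA (squares) members. Snora73b and Snord17 stand above the rest, while Snora73a, as long as Snora73b, lies far below it at a mean of 22.1.

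Per 100 bases, Snora73b was first at 662 normalised reads, followed by Snord17 (379), Snord104 (280.5), Snora78 (191), Snora57 (189), Snora28 (141) and Snord49a (98.3). Snora73b and Snora73a are copies of U17, an H/ACA snoRNA that acts in early cleavage of the ribosomal RNA precursor. They differ by 7 of 205 bases (96.6% identity), yet Snora73b had 61.4 times as many normalised reads. The annotation bears on this ratio: 77.6% of Snora73a is covered by an exon of Snhg3 on the same strand, whereas no same-strand exon covers Snora73b. On the other strand, exons of Gm17300 cover 100% of Snora73b and 85.4% of Snora73a. The sources used here do not tell how reads that touch 2 genes, or match 2 copies, were counted, which leaves the split between the copies uncertain. Across all members, 16 had at least 50% of their length under a same-strand exon of another gene, among them Snora28 and Snord19, and 49 had no exon of another gene on either strand. Other lettered pairs differ more, at 69.4% identity for Snord49a and Snord49b, 68.1% for Snord42a and Snord42b and 73.3% for Snord35a and Snord35b.

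Several of the most abundant members varied widely between libraries of one genotype. Snora73b had 998, 1980.5 and 1518 normalised reads in WT (libraries are given in the order of their replicate numbers throughout) and 1008, 1951, 1566 and 479 in cKO MED1. Snord17 had 437, 1559 and 1329 in WT and 927, 967, 669 and 423 in cKO MED1. For both, the lowest WT library was replicate 1 and the lowest cKO MED1 library was replicate 4, and the groups overlapped. The coefficient of variation of Snord17 among WT libraries was 53.5%, 17.8 times what counting error alone would give. Snord118, the U8 snoRNA that acts in processing of the large subunit's RNA, likewise ranged from 102 to 237 in WT and from 60.4 to 149 in cKO MED1. Snord104, a C/D guide, stood by contrast at 187, 206 and 188 in WT and at 192, 189, 212 and 199 in cKO MED1. Snora28, an H/ACA guide, was as even, at 170.1, 181 and 170.1 in WT and 178, 176, 189.6 and 192 in cKO MED1. The spread of Snord104 and Snora28 was below their counting error in both groups. Over the 61 tested members, the coefficient of variation was more than 2 times the counting error in 11 members among WT libraries and in 5 among cKO MED1 libraries. The median coefficient of variation was alike, at 23.4% in WT and 23.3% in cKO MED1. The median counting error was smaller in the deeper WT libraries, at 16.1% against 23.0%.

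**Figure D2:**
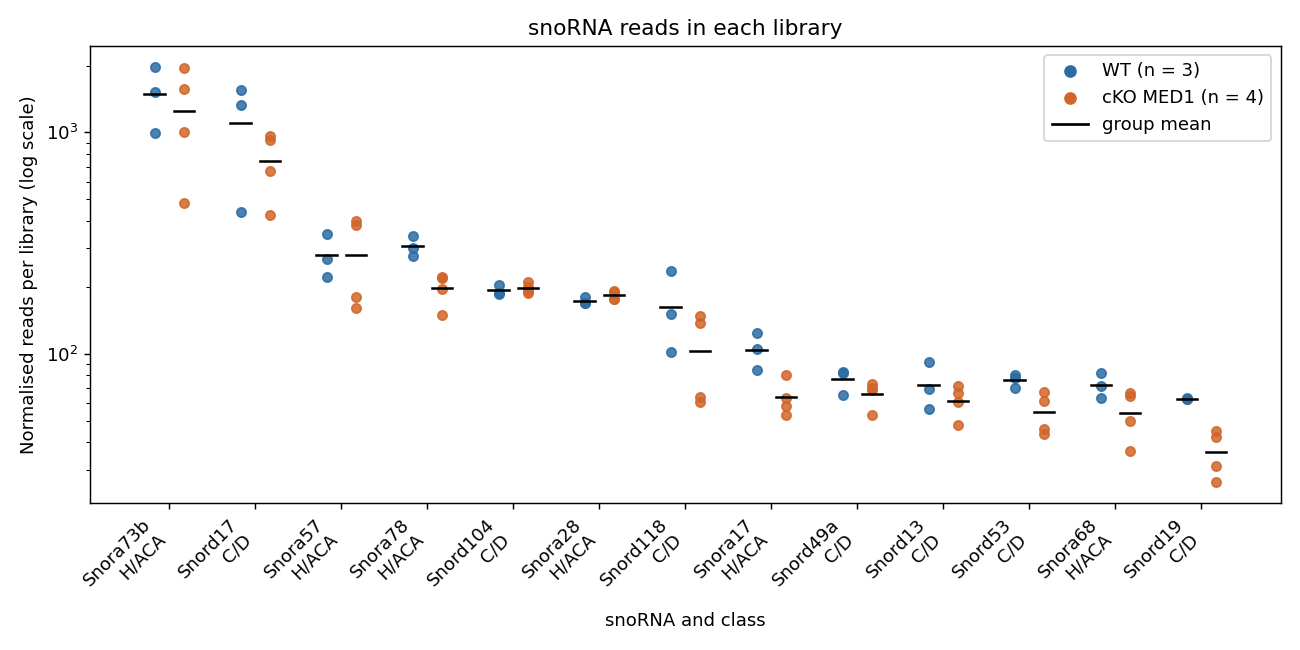
Normalised reads (log axis) of 13 snoRNAs in each library, WT in blue (n = 3) and cKO MED1 in orange (n = 4), with black bars for group means. The groups are apart for Snora78, Snora17, Snord53 and Snord19, while Snora73b and Snord17 spread widely within each genotype.

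Few snoRNAs differed between the genotypes by the test. Of the 70 members, 61 passed the filter on low counts, 41 C/D and 20 H/ACA. Limma's test over all 18062 features called 3 of the 61 lower in cKO MED1 and 0 higher at an adjusted p under 0.05. Among all features it called 14.6% lower and 13.4% higher, or 28% in either direction. That balance of all features depended on the scaling: 2419 were higher and 2646 lower with TMM factors, 2133 and 3585 with the authors' size factors, and 2044 and 4379 with total reads. Without adjustment, 4 members had a p under 0.05, all of them lower (the 3 and Snord53), and edgeR, DESeq2 and limma-voom also called 0 members higher. The 3 lower calls were 2 of 20 H/ACA members, Snora78 and Snora17, and 1 of 41 C/D members, Snord19. In bulk RNA, fewer copies per cell and fewer cells with the RNA cannot be told apart. In 5 of the 61 all cKO MED1 libraries lay below all WT libraries and in 0 above, against 19.8% and 19.3% of all features. The 5 were the 3 called members, Snord53 and Snord58b. The 9 members not tested had means of at most 7.22 normalised reads. They were Snord89, Snord33, Snord92, Snord23, Snord42a, Snord90, Snord123, Snora34 and Snora5c.

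Snora78, an H/ACA snoRNA within the span of the noncoding gene Snhg9, had 276, 340.3 and 301 normalised reads in WT and 222, 221, 196 and 150.1 in cKO MED1. Every cKO MED1 library lay below every WT library. WT averaged 306 ± 32.4 (SD, n = 3) and cKO MED1 197 ± 33.8 (SD, n = 4), and limma gave a log2 difference of -0.64 with an SE of 0.16 and an adjusted p of 0.0147. The call held with any single library left out. Without both cKO MED1 replicates 3 and 4 the difference was -0.45, with a limma adjusted p of 0.0592.

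Snora17 had 124, 105 and 84.6 normalised reads in WT and 58.3, 63.4, 80.3 and 53.1 in cKO MED1, so the groups were separated by the small gap between WT replicate 3 and cKO MED1 replicate 3. WT averaged 105 ± 19.7 (SD, n = 3) and cKO MED1 63.8 ± 11.8 (SD, n = 4), a log2 difference of -0.71 by limma with an SE of 0.20 and an adjusted p of 0.0275. The call ended without WT replicate 1 (limma adjusted p = 0.126), WT replicate 2 (0.0587) or cKO MED1 replicate 4 (0.0637).

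Snord19 had 62.7, 62.8 and 63.1 normalised reads in WT and 44.7, 26.3, 42.1 and 31.1 in cKO MED1. All cKO MED1 libraries were lower than all WT libraries. The WT libraries, with 77 to 91 reads each, had a coefficient of variation of 0.337%, where counting error alone would give 11.1%. WT averaged 62.9 ± 0.212 (SD, n = 3) and cKO MED1 36.1 ± 8.78 (SD, n = 4), and limma's log2 difference was -0.82 (SE 0.24) at an adjusted p of 0.0301. The call ended when any WT library was left out (limma adjusted p = 0.1004, 0.0664 and 0.0596 without replicates 1, 2 and 3) and without cKO MED1 replicate 2 (0.0602) or 4 (0.0598), with log2 fold changes from -0.65 to -0.87. Snord19 lies wholly under an annotated exon of its host gene Gnl3, so reads of retained Gnl3 sequence could count here, and their part in the result was not tested. Snord69, the other member in Gnl3 and likewise under an exon, averaged 39.8 ± 11.3 (SD, n = 3) in WT and 27.6 ± 5.28 (SD, n = 4) in cKO MED1. It did not pass, at a log2 difference of -0.49 and a limma adjusted p of 0.221.

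When limma was given the sex of each library as a covariate, none of the 3 passed, at log2 differences of -0.63 for Snora78, -0.36 for Snora17 and -0.57 for Snord19 (limma adjusted p = 0.195, 0.437 and 0.349). Sex and genotype were nearly the same split. Ddx3y, on the Y chromosome, had 5510 to 7110 reads in the WT libraries and 3394 in cKO MED1 replicate 3, and at most 3 in the other cKO MED1 libraries. In that fit the genotype effect rests on 1 cKO MED1 library.

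**Figure D3:**
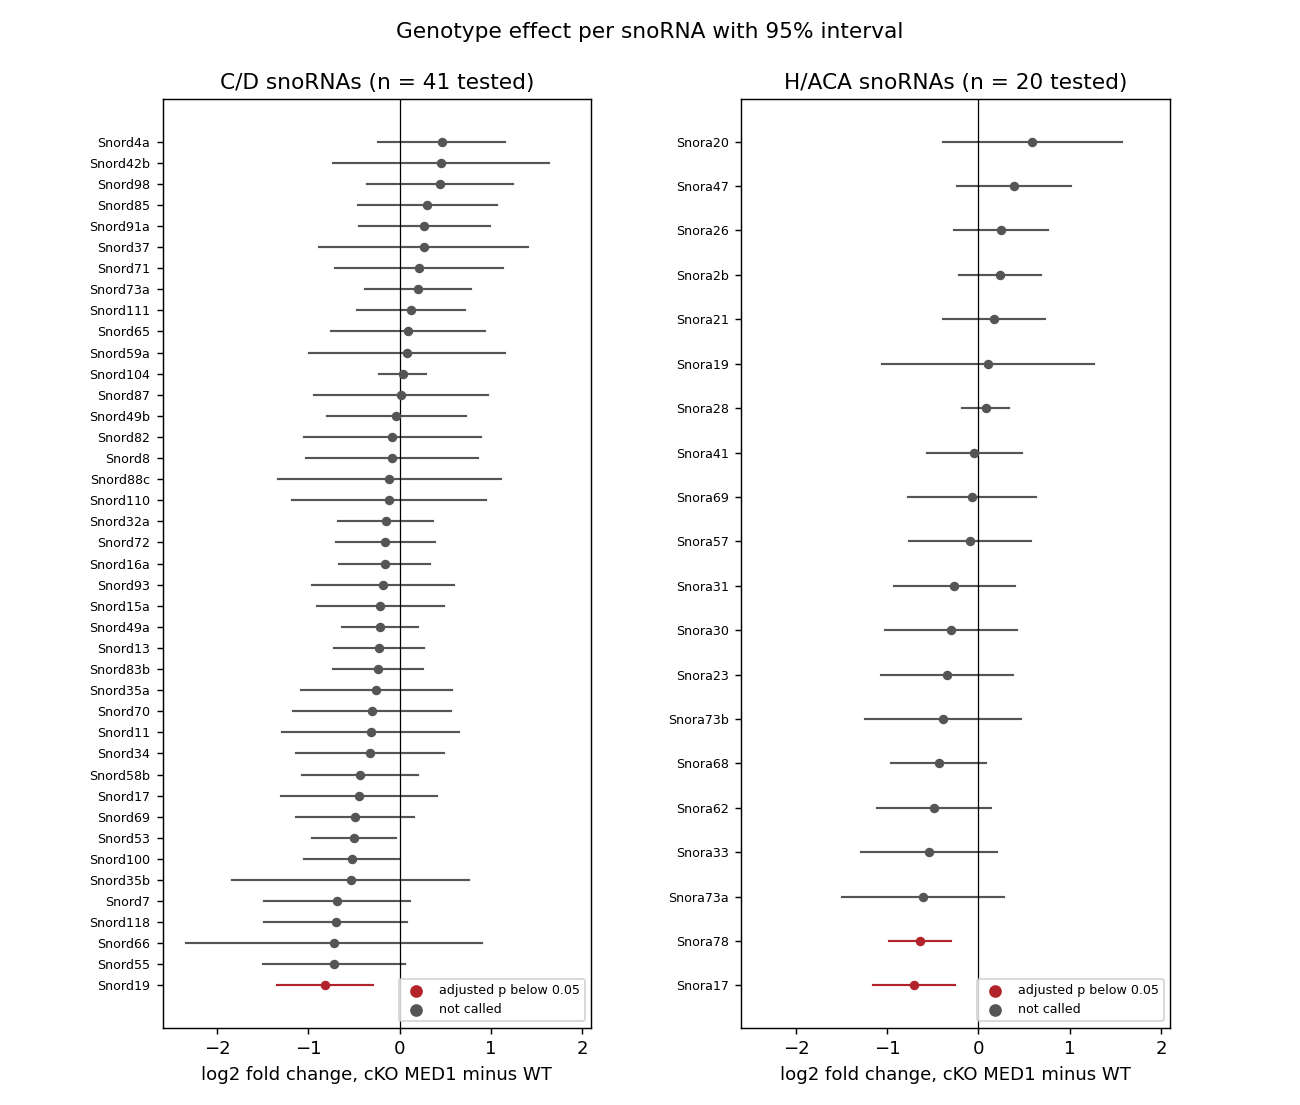
Log2 fold change, cKO MED1 minus WT, with its 95% interval for the 41 C/D and 20 H/ACA members tested, ordered by size. Red marks the 3 with a limma adjusted p under 0.05, and of the other intervals all but that of Snord53 include 0.

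Among members that were not called, the precision differed widely. Snora28 had a log2 fold change of 0.08 with a 95% interval from -0.18 to 0.34, and Snord104 of 0.03 with an interval from -0.22 to 0.29. For these 2 a fall as large as that of Snora78 lies outside the interval. For Snora73b the log2 fold change was -0.39 (interval -1.24 to 0.47), for Snord17 -0.45 (-1.30 to 0.41) and for Snord118 -0.70 (-1.49 to 0.08), and each of these intervals includes a fall by 1 on the log2 scale, to 50% of WT. Snord17 was called lower without WT replicate 1, its lowest WT library (-1.07, limma adjusted p = 0.0259). Snora57 averaged 279.9 ± 63.6 (SD, n = 3) in WT and 280.2 ± 126 (SD, n = 4) in cKO MED1, with 2 cKO MED1 libraries at 161 and 181 and 2 at 382 and 396. Snord49a (-0.22), Snora68 (-0.44) and Snord13 (-0.22), the U13 snoRNA that acts on the small subunit's RNA, did not pass either, at limma adjusted p of 0.407, 0.179 and 0.462. Snord53 did not pass, at a log2 difference of -0.50 and a limma adjusted p of 0.0926, although its cKO MED1 libraries, at 43.4 to 67.2, all lay below WT at 70.2 to 80.6. Its call depended on the scaling: it was lower with the authors' size factors (-0.63, limma adjusted p = 0.0388) and with total reads (-0.74, 0.0151). Snord118 (-0.94, limma adjusted p = 0.00493) and Snord17 (-0.69, 0.0399) were also called lower with total reads, and Snord118 without the filter (-0.86, 0.0169). Over all 61, the 95% interval lay within a 2-fold change either way for 26.

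The medians of both classes were close, and no test of one class against the other was made. The median log2 fold change was -0.16 over 41 C/D members and -0.18 over 20 H/ACA members, beside 0.04 over all features. A single library stood apart: against the WT mean, the C/D median was -0.48 in cKO MED1 replicate 4 and -0.03, -0.10 and -0.15 in replicates 1 to 3, and the H/ACA median was -0.29 and -0.10, -0.05 and 0.12. That library also held the fewest snoRNA reads for its depth, at 53.1 RPM against 92.4 to 117 in the other cKO MED1 libraries. Without it the class medians were -0.04 and -0.08. Below 0 were 28 of the 41 and 13 of the 20. Summed C/D reads were 2659 ± 682 (SD, n = 3) normalised reads in WT and 2088 ± 342 (SD, n = 4) in cKO MED1, and summed H/ACA reads 2899 ± 589 and 2471 ± 803, with overlap between the groups in both. Without Snora73b and Snord17 the sums were 1551 ± 184 and 1342 ± 115 for C/D and 1400.3 ± 147 and 1220.2 ± 173 for H/ACA. The C/D share of snoRNA reads was 45.1%, 48.3% and 49.4% in WT and 51.4%, 42.1%, 41.5% and 51.7% in cKO MED1. The Wilson 95% interval was 43.8% to 46.3% in the first of these and 49.3% to 54.0% in the last, which covers counting error only. The cKO MED1 libraries thus fell on both sides of the WT range, and no order by genotype was seen. Snora73b and Snord17, with 29.1% to 51.7% of the snoRNA reads of a library, weigh heavily in this share. It was not taken without them.

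The low level of most members bears on the comparison with all features. In features whose mean lay between 17.4 and 50.2 normalised reads, the interquartile range of the tested members, limma called 23.4% of 2990 higher and 1.17% lower, and the median log2 fold change was 0.60. Reads over olfactory and vomeronasal receptor genes, which B cells do not use, were higher in most cKO MED1 libraries. They stood at 0.116, 0.235 and 0.191 normalised reads per kb of exon in WT and at 0.227, 0.312, 0.572 and 0.966 in cKO MED1. At the highest of these levels the longest member would hold 0.23 normalised reads, and subtracting each library's level per base left the same 3 members called. A list of 20 neuronal and muscle genes, not used in that subtraction, summed to 1024 to 1370 normalised reads in WT. In cKO MED1 it summed to 1379 to 2709, with a median log2 fold change of 1.60. The receptor gene level does not measure reads from unspliced RNA of the genes that hold the snoRNAs, and their part was not tested. Markers of other cells were low beside those of B cells. The 8 B cell markers summed to 178632 to 192168 normalised reads in WT and 129724 to 144509 in cKO MED1, without overlap, and 5 of the 8 were called lower (median log2 fold change -0.38). Against these sums stood at most 258 for 6 NK cell, 794 for 9 macrophage and 484 for 6 erythroid markers. The 11 T cell markers summed to 241 to 323 in WT and 323 to 393 in cKO MED1 (1 of 8 tested higher). The 7 neutrophil markers summed to 7.57 to 21.2 and 25.7 to 112 (1 of 2 tested higher), with S100a9 at 0 in all WT libraries. The part of such cells in the snoRNA values was not tested.

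Host genes were taken from the annotation as the gene on the same strand whose span holds the snoRNA, if its symbol stood in the deposited table. Coding genes were taken before noncoding ones, and then the shortest span. By this rule 64 of 70 members had a host, 51 different genes in all. Of these members 20 lay in ribosomal protein genes named Rpl or Rps with a number, 34 in other coding genes and 10 in noncoding genes. Rpsa, the host of Snora62, also encodes a ribosomal protein but was counted among the other coding genes. The 6 without one included Snord118 and Snord13, which are known to be transcribed from promoters of their own, and Snord104, Snora57 and Snora17. A lack of a host here need not mean that no annotated gene holds the member. Snord95, a symbol left out above, had none by this rule though an exon of Rack1 covers all of it. Of the 50 host genes that could be tested, limma called 14 lower and 2 higher, where 14.6% and 13.4% of all features were. No share was taken at the read level of the hosts. Their median log2 fold change was -0.14, beside 0.04 over all features. Over 55 pairs with both values (46 hosts, since several members share a host), the snoRNA's log2 fold change lay above the host's in 32 and below it in 23. Across these pairs Pearson's r was -0.03 and Spearman's rho -0.04, given as a description over features that share libraries and hosts. Of the 16 pairs whose host was lower, the snoRNA was called in 1, Snord19 in Gnl3.

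**Figure D4:**
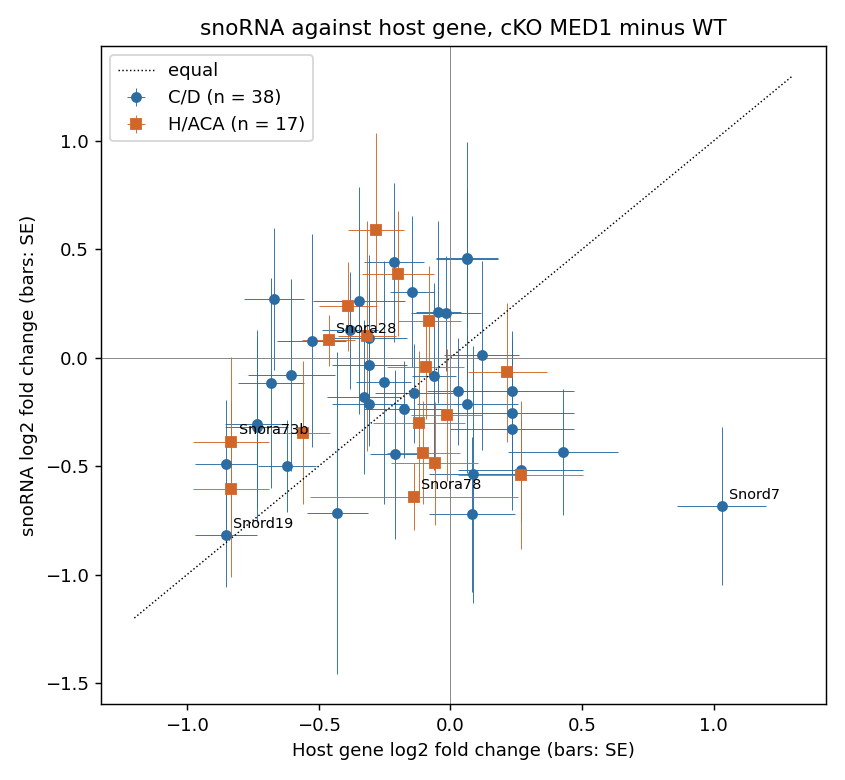
Log2 fold change (cKO MED1 minus WT) of each snoRNA against that of its host gene for 55 pairs, with SE bars and a dotted line of equality. Points with a host below -0.8 spread from Snord19 at -0.82 to Snora73b at -0.39, and over all pairs r was -0.03.

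Gnl3, which encodes the nucleolar GTPase nucleostemin, averaged 4017 ± 653 (SD, n = 3) normalised reads in WT and 2214 ± 222 (SD, n = 4) in cKO MED1, a log2 difference of -0.85 with a limma adjusted p of 0.00116. Snord19 kept a like ratio to it, at 13.3, 16.0 and 18.5 reads per 1000 Gnl3 reads in WT and 20.3, 12.1, 16.8 and 15.8 in cKO MED1. Eif5, a translation initiation factor gene and the host of Snora28, averaged 14320.1 ± 1212 and 10385 ± 689, a log2 difference of -0.46 with a limma adjusted p of 0.00928. Snora28 lies wholly under an annotated exon of Eif5. Snora28 per 1000 Eif5 reads was 10.9, 12.9 and 12.8 in WT and 16.1, 17.6, 17.4 and 20.1 in cKO MED1, without overlap. Of the 8 named members with a host, the other 7 had ratios that overlapped between the groups. The ratio was set out after the values were seen, and no test of it was made. Rcc1, the exchange factor gene of the GTPase Ran and host of Snora73b by the rule that takes coding genes first, was lower by limma at a log2 difference of -0.83 and an adjusted p of 0.00352. Snhg3, whose exon covers 77.6% of the nearby Snora73a, did not pass (-0.23, limma adjusted p = 0.178). Wdr43, a gene of small subunit assembly and host of Snord53, was lower at -0.62 (limma adjusted p = 0.004). Snx5 (-0.21), 2410006H16Rik (-0.31) and Snhg9 (-0.14), the hosts of Snord17, Snord49a and Snora78, did not pass. Snhg9 itself held only 23.9 ± 4.13 (SD, n = 3) normalised reads in WT, far fewer than the snoRNA within it. Members in genes of snoRNA proteins themselves did not pass: Snord11 (-0.32) and Snord70 (-0.30) in Nop58 and Snord110 (-0.12) in Nop56. By kind of host, 0 of 18 tested members in ribosomal protein genes so named were called (median log2 fold change -0.23). In other coding genes, with Snora62 in Rpsa among them, 1 of 30 was called (-0.10). The counts were 1 of 8 in noncoding genes (-0.11) and 1 of 5 without a host by the rule (-0.22).

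Core genes of the snoRNA particles were lower in cKO MED1 in 4 of 4 cases for C/D and 3 of 4 for H/ACA. Over 5 lists, which also hold assembly factors, trimming enzymes and noncoding host genes, 36 of 55 tested genes were lower. Another 3, all noncoding hosts, were higher, where 14.6% of all features were lower and 13.4% higher. Those shares are not matched for read level. Among features at 17.4 to 50.2 normalised reads, 1.17% were lower and 23.4% higher, and no share was taken at the level of the list genes. The B cell markers given above were lower in the same libraries, and the part of that in these results was not tested. All 4 core genes of the C/D particle fell: the methyltransferase gene Fbl (-0.79), the scaffold genes Nop56 (-0.68) and Nop58 (-0.74), and Nhp2l1 (-0.48), whose product binds the C and D boxes. Of the 4 core genes of the H/ACA particle, the pseudouridine synthase gene Dkc1 (-0.87), Gar1 (-0.87) and Nhp2 (-0.62) fell. Nop10 did not pass (-0.43, limma adjusted p = 0.0553), but did with DESeq2 (-0.42, adjusted p = 0.0353). Dkc1 had 4342, 3628 and 3248 normalised reads in WT and 2172, 2188, 2305 and 1570.2 in cKO MED1, so each cKO MED1 library was lower than each WT library (SE 0.14, limma adjusted p = 0.00262). Fbl had 2484, 2036 and 1869 in WT and 1317, 1312, 1317 and 972 in cKO MED1, again without overlap (SE 0.13, limma adjusted p = 0.0029).

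Factors that assemble the particles or work with U3 fell in 13 of 14 cases and rose in 0, with a median log2 fold change of -0.53. They included Nolc1 (-0.89), a nucleolar chaperone gene, Rrp9 (-0.81), which encodes a U3 protein, the ATPase gene Ruvbl1 (-0.69) and Coil (-0.55), the coilin gene of Cajal bodies. Znhit3 did not pass (-0.28). Genes of intron release and trimming fell in 13 of 18 cases and rose in 0 (median -0.45), among them the exosome genes Exosc2 (-0.77), Dis3 (-0.72) and Exosc9 (-0.73) and the nuclear exonuclease gene Xrn2 (-0.52). Noncoding host genes were mixed, with 3 of 15 lower and 3 higher (median -0.14). Among all features 14.6% were lower and 13.4% higher, so these counts do not set the noncoding hosts apart. Snhg12 (-0.75), Gas5 (-0.46) and Snhg4 (-0.43), long RNAs whose introns hold snoRNAs, fell. Snhg14 (2.55), Snhg11 (1.90) and Snhg18 (0.82) rose, but 0 of these were called without WT replicate 1 or without cKO MED1 replicate 4. Snhg14 went from 1.38, 18.8 and 13.6 to 24.4, 33.1, 54 and 146 normalised reads, within each genotype in the same order of libraries as the olfactory receptor reads, and the part of those reads in the rise was not tested.

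**Figure D5:**
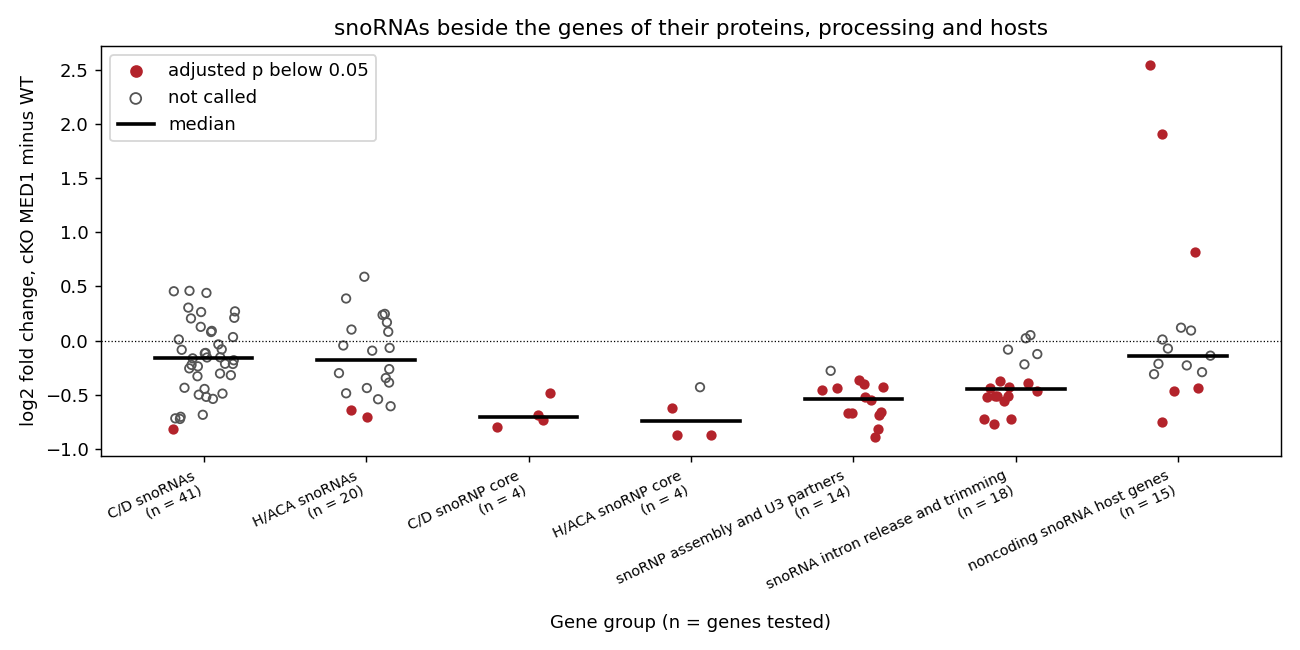
Log2 fold change (cKO MED1 minus WT) of each tested gene in 7 groups, filled red where limma's adjusted p was under 0.05, with black bars for medians. Nearly all genes of snoRNA proteins lie below 0 and are called, while the snoRNAs scatter around medians of -0.16 and -0.18.

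The median log2 fold change over the 8 core genes was -0.71. Of the 61 tested members, the 95% interval lay wholly above that value for 18 (11 C/D and 7 H/ACA) and included it for 43. The median SE was 0.36 for C/D and 0.30 for H/ACA members, and 57 of the 61 intervals included 0. A change like that of the core genes was therefore not separable from no change for most members in these libraries. With the sex covariate limma called 0 of the 55 list genes. Of all 18062 features that fit called 109 higher and 119 lower, and its genotype effect rests on 1 cKO MED1 library.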

How the data were processed

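RNA was depleted of ribosomal RNA and sequenced as paired reads of 150 bp after 14 cycles of amplification with a stranded total RNA kit, per the labels' protocols. The authors deposited 1 table of signal values per gene, which are read counts divided by a size factor per library: 100% of values were whole multiples of the library's smallest value (tolerance 1e-06), so whole reads were recovered. DESeq2, R 3.4, featureCounts of Subread 1.5.0-p3 and the aligner STAR 2.4.0a stand in the submitters' processing notes, with GRCm38 as the build. The sources used here do not give the strand setting. The phiX174 row (at most 0.000383% of reads) was left out. Positions and sequences came from GENCODE M21 (GRCm38), which placed 94.1% of features and all 70 members.

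Reads were filtered with edgeR 4.0.16 (filterByExpr), scaled with TMM factors and tested with limma 3.58.1 (R 4.3.3, intensity trend) on log2(normalised reads + 1), with Benjamini-Hochberg adjustment over 18062 features. Fold changes on that scale understate those of features with few reads. The fit was also run on simulated counts with known changes and no difference in sex or background, and no result here rests on its outcome. Lists are described by counts without set tests. The members and lists were chosen with earlier results of these data known. Named genes are the 6 most abundant members of each class, called members without overlap, core particle genes, up to 4 called genes per other list, their hosts and Med1; 1 host gene is not reported here. Other names and the host ratios were picked with values in view. Alternatives were RLE, total-read and authors' scaling, other filters, edgeR, DESeq2 1.42.0, limma-voom, a pseudocount of 5, a threshold of 0.01, a replicate block, sex as a covariate, background subtraction, 50 summed reads and libraries left out. For the box comparison promoter windows took the place of flanking sequence.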

Additional observations from a re-analysis of the deposited data

Results flagged for a closer look

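Among the 45 quantities checked over the 4 cKO MED1 libraries (named genes, class sums and the C/D share), 1 library stood far from the other 3. Fbl was at 972 normalised reads in cKO MED1 replicate 4, against 1312 to 1317 in the other 3. Chance flags about 1 in 20 such groups, so a single case among 45 is no pattern.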

How the results depend on the processing

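The main counts were 1 C/D and 2 H/ACA snoRNAs lower, and 36 lower and 3 higher genes of the 5 lists. With total reads as scaling, 6 C/D and 5 H/ACA snoRNAs were lower and the class medians were -0.40 and -0.42, while the median of all features moved from 0.04 to -0.21. The authors' size factors gave 2 C/D calls, and no filter gave 2 C/D calls and an H/ACA median of -0.36. The filter of CPM 1 in 3 libraries left 12 C/D and 10 H/ACA members, with 0 and 1 lower, and 1 list gene higher. At a threshold of 0.01 the counts were 0, 0, 22 and 0. With sex as a covariate they were 0, 0, 0 and 0, and the H/ACA median was 0.12. Without both cKO MED1 replicates 3 and 4 they were 0, 1, 27 and 1. Leaving out each library in turn gave 0 to 1 C/D, 1 to 2 H/ACA, 24 to 39 lower and 0 to 3 higher list genes. The lowest of these, 24 and 0, came without WT replicate 1. The class medians then ran from -0.29 to -0.04 for C/D and from -0.33 to -0.08 for H/ACA. Over all features, 2419 higher and 2646 lower became 109 and 119 with sex, 513 and 794 at the 0.01 threshold, 869 and 1276 without both libraries, 527 and 1029 without WT replicate 1, and 1289 and 1523 without cKO MED1 replicate 4. The cause of these shifts was not tested. No snoRNA was called higher in any alternative, and no named gene's call reversed.

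With the replicate number as a replicate block, 0 C/D and 1 H/ACA snoRNAs were lower (Snora78), and 33 list genes. Whether the numbers pair the libraries is not known. Same-numbered libraries deviated from their group means with correlations of 0.51, -0.23 and 0.16. With so few libraries in each mean, these values cannot settle it. Of 21 alternatives, Snora78 was called in 18, Snora17 in 14 and Snord19 in 11. Most members held few reads, as 63 of 70 averaged 100 reads or fewer per library. The part of depth in the precision was not tested.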
